A study of Mus musculus with 36 samples.

Results

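RGK GTPases (Rad, Gem, Rem1 and Rem2) were described in the suprachiasmatic nucleus (SCN) of mice that received a light pulse with or without the MEK inhibitor U0126. Members were the genes Rrad (which encodes Rad), Gem, Rem1 and Rem2, each read by its brightest probe set whose annotation holds that symbol alone. Rrad, Gem and Rem2 had 1 such probe set each. Rem1 had no probe set of this kind and was not analysed here, so 3 of the 4 genes were followed, out of 30176 single gene symbols on the array. Rrad was chosen by its own light response, the difference in log2 intensity between DMSO-Light and DMSO-Sham arrays, and the other genes as its relatives. For Rrad, therefore, every comparison that weighs DMSO-Light and DMSO-Sham arrays of a time unequally is given as a description with no test. In RefSeq, Rrad lies on mouse chromosome 8 (gene 56437), Gem on chromosome 4 (gene 14579) and Rem2 on chromosome 14 (gene 140743).

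The arrays came from wild-type C57BL/6J mice aged 8 to 14 weeks with a 24-gauge guide cannula in the lateral ventricle, kept for 2 days in darkness before treatment. Each mouse was infused with vehicle (DMSO) or 10 mM U0126 at circadian time 4 (CT4, subjective day), CT15 (early subjective night) or CT22 (late subjective night), and then received either light (100 lux for 10 min) or a sham pulse. This gave DMSO-Sham, DMSO-Light, U0126-Sham and U0126-Light groups at each time, 12 groups with 3 arrays each, and each array held the pooled SCN of 2 mice. The labels give a 3 µL infusion 30 min before the pulse and collection 60 min after it, the series description gives 50 min for the collection, and the paper names the times as zeitgeber times. Values are log2 intensities, so that a difference of 1 is a change by a factor of 2, and levels of different genes cannot be set against each other. In the tests, fitted with limma over 65956 probe sets, a gene passed when its Benjamini-Hochberg adjusted p was 0.1 or less and its change exceeded 1.3-fold. The 36 array medians lay between 4.51 and 4.66. The markers listed for SCN neurons, among them neuropeptide and GABA neuron genes, had means over the arrays from 5.87 for Prok2 to 10.85 for Gad2. Vip was at 9.40 and Avp at 10.36. Xist, which is transcribed from the inactive X chromosome of females, was at 3.29 to 3.39 in the DMSO-Light arrays at CT4 and at 9.25 to 10.25 in the other 9 arrays of that time, and arrays of both kinds occurred in every group of CT15 and CT22. The labels do not give the sex of the pools. The paper states that females and males were used in equal numbers in every group, but Xist was low in all 3 DMSO-Light arrays of CT4. At CT4 a difference in sex between DMSO-Light and the other groups cannot be told apart from treatment. In bulk tissue, fewer cells of a type and less RNA per cell cannot be told apart either.

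RGK proteins are small GTPases of the Ras superfamily that are regulated largely through their abundance. They bind the beta subunits of voltage-gated calcium channels and reduce the current through high-voltage-activated channels, and they also bind scaffold proteins encoded by the Ywha genes. Gem was named for its induction in stimulated T cells, Rad is known from muscle and heart, where it links protein kinase A to calcium channels, and Rem2 is a neuronal member whose expression follows activity. In the SCN, light at night reaches the clock neurons as glutamate release from the retina, which raises calcium and activates ERK through MEK, the kinase that U0126 inhibits.

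Rrad was highest in DMSO-Light arrays at every time, and its lowest means were those of the other 3 groups at CT15. At CT15 its log2 intensities were 6.44, 5.71 and 6.30 in DMSO-Sham and 7.53, 7.23 and 6.96 in DMSO-Light. All 3 light arrays lay above all 3 sham arrays, a separation in this direction shown by 7.02% of all probe sets. The difference of 1.09 (95% interval 0.73 to 1.45) is 2.13-fold, and 9 of the 30638 probe sets with a single symbol had a larger increase. This is the response for which Rrad was picked, and the intervals of its vehicle responses take no account of that choice.

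At CT22 Rrad read 6.56, 6.68 and 7.07 in DMSO-Sham and 7.48, 7.16 and 7.49 in DMSO-Light. The groups again did not overlap (6.73% of all probe sets were separated this way), and the difference was 0.61 (0.25 to 0.96), with 16 single-symbol probe sets above it. At CT4 the sham arrays read 6.81, 6.87 and 6.58 and the light arrays 7.25, 7.05 and 6.87. The groups of CT4 overlapped, and the difference was 0.30 (-0.06 to 0.66), which 273 single-symbol probe sets exceeded. In vehicle, the response at CT15 was larger than at CT4 by 0.79 (0.29 to 1.29), and that at CT22 minus that at CT15 was -0.49 (-0.99 to 0.02). Both are descriptions, and their intervals take no account of the choice of Rrad. In the first of these differences 0% of all probe sets passed, and in the second 0.0804%. Markers of meningeal fibroblasts also differed at CT15. Their summed log2 level was 8.75 to 8.91 in DMSO-Sham and 8.23 to 8.64 in DMSO-Light. Among the markers, 1 of 7 measured (Slc22a8) passed as lower, where 0.0136% of all probe sets did. SCN neuron markers differed at CT15 in the direction of Rrad. Their summed log2 level was 12.36 to 12.42 in DMSO-Sham and 12.59 to 12.74 in DMSO-Light. Under U0126 it was 12.26 to 12.36 with sham and 12.36 to 12.48 with light. In vehicle, light and sham arrays overlapped in this sum at CT4 and CT22. The part of either marker list in the Rrad difference was not tested.

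**Figure D1:**
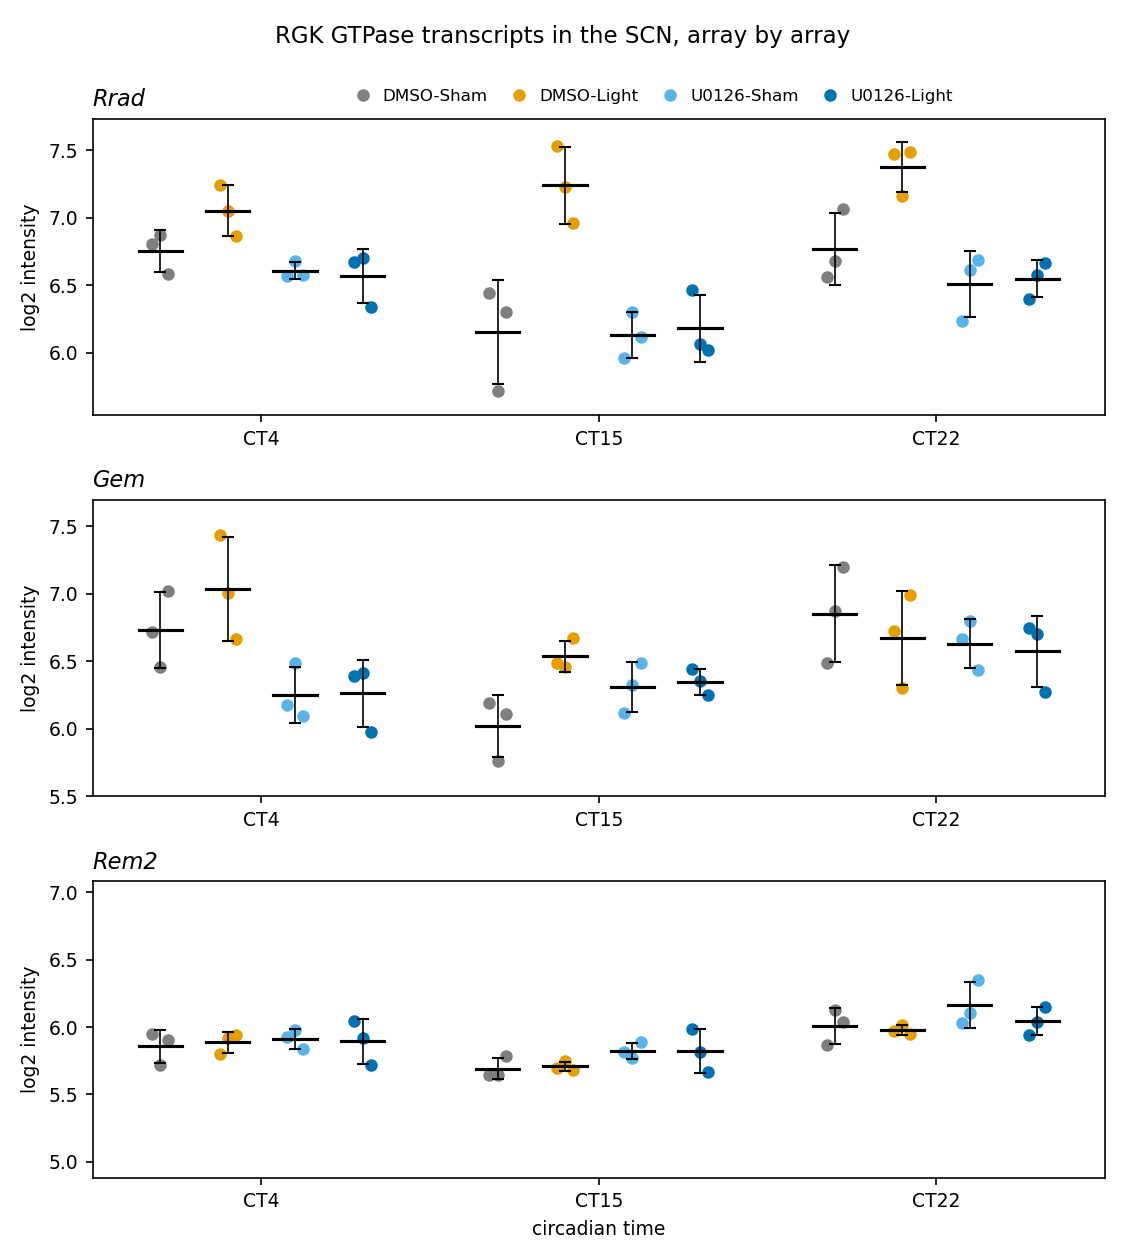
Log2 intensity (vertical axis) of Rrad, Gem and Rem2 in every array at CT4, CT15 and CT22. Points are arrays (3 per group, each a pool of 2 mice), horizontal bars are group means and whiskers are SD. The Rrad DMSO-Light means of 7.05, 7.24 and 7.37 stand above the other 3 groups of their time, whereas Rem2 differs more between times than between treatments.

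Under U0126, no difference between light and sham arrays of Rrad was detectable. At CT15 the readings were 5.96, 6.30 and 6.12 in U0126-Sham and 6.46, 6.06 and 6.02 in U0126-Light. The groups overlapped, and light minus sham was 0.05 (-0.31 to 0.41, adjusted p = 1.00 with limma). At CT22 they were 6.23, 6.61 and 6.68 in U0126-Sham and 6.40, 6.58 and 6.67 in U0126-Light, a difference of 0.04 (-0.32 to 0.39, adjusted p = 0.997). At CT4 they were 6.56, 6.68 and 6.58 in U0126-Sham and 6.67, 6.70 and 6.34 in U0126-Light, a difference of -0.04 (-0.39 to 0.32, adjusted p = 0.998). The groups overlapped at all 3 times. Averaged over the 3 times, light under U0126 shifted Rrad by 0.02 (-0.19 to 0.22, adjusted p = 0.988). An increase of up to 0.22 lies within that interval. Rrad passed in none of these 4 comparisons, and its unadjusted p was 0.771 or higher in each. Of all 65956 probe sets, 0% passed with light under U0126 at any single time with limma and 0.00152% in the average, whereas 2815, 2974 and 3183 had an unadjusted p under 0.05 at CT4, CT15 and CT22.

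The contrast between the drug and vehicle arrays lay mostly where light had been given. With light, U0126 arrays were lower than DMSO arrays by 0.48 at CT4, 1.06 at CT15 and 0.83 at CT22, with no overlap at any time. Of all probe sets, 5.50%, 6.16% and 5.87% were separated in that direction at these times. Without light, Rrad was lower under U0126 by 0.15 at CT4, 0.02 at CT15 and 0.26 at CT22, and the groups overlapped each time. The light response under U0126 minus that in vehicle was -0.34 (-0.84 to 0.17), -1.04 (-1.54 to -0.54) and -0.57 (-1.07 to -0.06) at CT4, CT15 and CT22. These values use the arrays for which the gene was picked and carry no test.

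**Figure D2:**
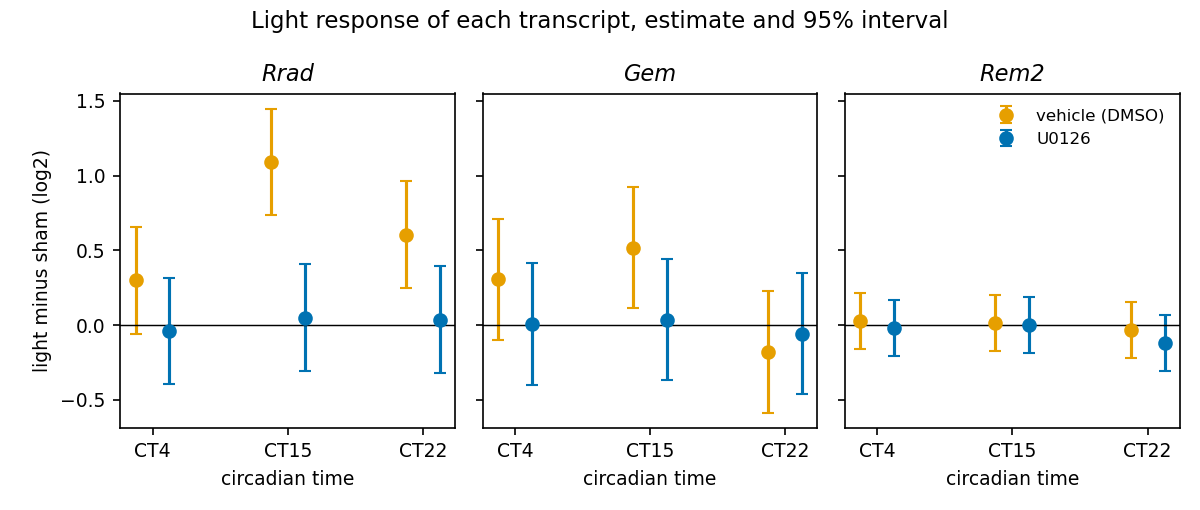
Light minus sham in log2 (vertical axis) for Rrad, Gem and Rem2 at each circadian time, in vehicle and under U0126; points are estimates from 3 against 3 arrays and bars are 95% intervals. All 9 estimates under U0126 lie between -0.12 and 0.05, and the Rrad estimates in vehicle are 0.30, 1.09 and 0.61. The Rrad intervals in vehicle take no account of the choice of the gene.

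A comparison that weighs light and sham arrays equally was tested for Rrad. Its adjusted p takes no account of the choice of the gene. Averaged over light and sham, the U0126 arrays differed from the DMSO arrays by -0.54 at CT15 (SE 0.12, 1.46-fold, adjusted p = 0.0104) and by -0.54 at CT22 (SE 0.12, 1.46-fold, adjusted p = 0.0220), and 0.102% and 0.869% of all probe sets passed as lower in these comparisons. At CT4 the value was -0.32 (SE 0.12), which did not pass (adjusted p = 0.689, with 0.0197% of probe sets passing as lower). The CT15 and CT22 effects differed from the CT4 effect by -0.23 each, which was not past the threshold (adjusted p = 0.601 and 0.700). Over all 3 times Rrad fell by 0.47 (SE 0.07, adjusted p = 0.000736), while 0.123% of all probe sets passed as lower. Each of these averages holds the arrays on which Rrad was picked. At CT15 the average is the mean of -1.06 with light and -0.02 without. It rests on the light arrays, largely restates the response for which Rrad was picked, and does not show an effect of U0126 without light. Earlier results of all arrays were known, so these averages are not independent evidence. No single array decided the calls at CT15, CT22 or over the 3 times, but each of those fits still uses the arrays of the choice.

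Markers of other cells differed in the same comparison. The summed log2 level of 6 endothelial markers was 8.56 to 8.76 in the DMSO arrays and 8.34 to 8.55 in the U0126 arrays at CT15, and 8.63 to 8.93 against 8.41 to 8.59 at CT22. Of these, Cdh5 passed at CT15 (-0.40). Meningeal fibroblast markers passed as lower in 2 of 7 cases at CT15 (Slc22a8 and Dcn), Mog in 1 of 3 oligodendrocyte markers, and Lhx1 and Rgs16 in 2 of 9 SCN neuron markers. In this comparison at CT15, 0.102% of all probe sets passed as lower and 2.77% as higher. No marker of these lists passed at CT22. Their part in the fall of Rrad was not tested.

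Genes of the negative feedback on ERK were followed as a description. The paper already names genes of this list as lowered by the drug in these arrays. The list was chosen with earlier results of these arrays known, so its passing genes are not an independent check of the drug. Dusp4 and Dusp6 encode phosphatases of ERK and its relatives, and Spry2 and Spry4 encode inhibitors of receptor tyrosine kinase signalling. Over the 3 times U0126 lowered Dusp4 by 0.66, Dusp6 by 0.60, Spry2 by 0.43 and Spry4 by 0.76 on the log2 scale. All 4 passed, where 0.123% of all probe sets passed as lower. At single times, 4 of 4 passed at CT4 and CT22 and 3 of 4 at CT15. The shares of all probe sets that passed as lower were 0.0197% at CT4, 0.869% at CT22 and 0.102% at CT15. At CT4 the 4 genes passed and no RGK gene did. This contrast is a description too, since the feedback genes were listed with earlier results known.

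**Figure D3:**
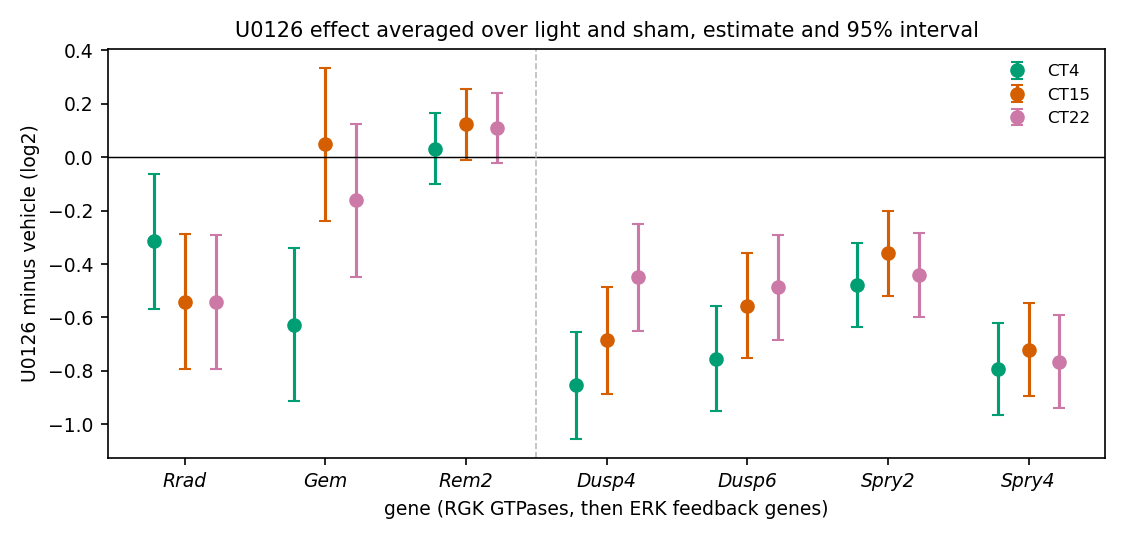
U0126 minus vehicle in log2 (vertical axis), averaged over light and sham, for the 3 RGK GTPases and 4 ERK feedback genes at CT4, CT15 and CT22; points are estimates from 6 against 6 arrays and bars are 95% intervals. Rrad is below 0 at every time, Gem is at -0.63 at CT4 and 0.05 at CT15, and Rem2 lies between 0.03 and 0.12.

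For Gem, a gene first found in stimulated T cells, no comparison of light with sham passed, in vehicle or under U0126. In vehicle 0%, 0.105% and 0.660% of all probe sets passed at CT4, CT15 and CT22. At CT15 its log2 intensities were 6.19, 5.76 and 6.11 in DMSO-Sham and 6.49, 6.46 and 6.67 in DMSO-Light. The groups did not overlap, as in 7.02% of probe sets, and the difference was 0.52 (SE 0.20, 1.43-fold, unadjusted p = 0.0142, adjusted p = 0.631). At CT4 Gem read 6.72, 6.45 and 7.02 in DMSO-Sham and 7.43, 7.01 and 6.67 in DMSO-Light, overlapping groups that differed by 0.31 (adjusted p = 0.777). At CT22 it read 6.49, 6.88 and 7.20 in DMSO-Sham and 6.73, 6.30 and 6.99 in DMSO-Light, a difference of -0.18 (adjusted p = 0.954). The vehicle responses at CT22 and CT15 differed by -0.70 (SE 0.28, adjusted p = 0.623), so the change in sign was not past the threshold.

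Under U0126 the Gem arrays at CT15 were 6.11, 6.32 and 6.49 with sham and 6.44, 6.35 and 6.25 with light, a difference of 0.04 (-0.37 to 0.44, adjusted p = 1.00). At CT4 they were 6.18, 6.49 and 6.09 with sham and 6.39, 6.41 and 5.98 with light (0.01, adjusted p = 1.00). At CT22 they were 6.67, 6.80 and 6.43 with sham and 6.75, 6.70 and 6.27 with light (-0.06, adjusted p = 0.997). Light and sham arrays overlapped at each time. The light response under U0126 was lower than in vehicle by 0.30 at CT4 and 0.48 at CT15 and higher by 0.12 at CT22, and the adjusted p was 0.901 or higher.

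Gem was also lower under U0126 at CT4, in the subjective day, though not past the threshold. The 6 U0126 arrays of CT4 were between 5.98 and 6.49 and the 6 DMSO arrays between 6.45 and 7.43, so that only the lowest DMSO array and the highest U0126 array overlapped. Averaged over light and sham the difference was -0.63 (SE 0.14, unadjusted p = 0.000115, adjusted p = 0.156). It passed in 1 of 12 fits with an array left out, that without replicate 3 of DMSO-Light (-0.72, adjusted p = 0.0735). The adjusted p reached 0.454 in the others. With Xist as a covariate the difference was -0.72 and passed as well (adjusted p = 0.0782), while over the alternatives the adjusted p reached 0.433. At CT15 and CT22 the values were 0.05 and -0.16. The effect at CT15 differed from that at CT4 by 0.67 (SE 0.20, adjusted p = 0.105), where 1.15% of all probe sets passed as higher. This difference passed in 5 of 24 fits with an array left out, and the adjusted p reached 0.205 in the others. The omitted arrays at CT4 were replicate 2 of DMSO-Sham (0.74, adjusted p = 0.0725), replicate 3 of DMSO-Light (0.77, 0.0614) and replicate 2 of U0126-Sham (0.73, 0.0944). Those at CT15 were replicate 3 of DMSO-Light (0.71, 0.0871) and replicate 1 of U0126-Sham (0.72, 0.0881).

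For Rem2, the neuronal member, no comparison of light or U0126 passed. At CT15 its log2 intensities were 5.65, 5.64 and 5.78 in DMSO-Sham and 5.70, 5.74 and 5.68 in DMSO-Light, overlapping groups that differed by 0.02 (-0.17 to 0.20, adjusted p = 0.986). Light minus sham was 0.03 at CT4 and -0.03 at CT22 in vehicle, and -0.02, 0.00 and -0.12 at CT4, CT15 and CT22 under U0126. The intervals of these 6 differences reached from -0.30 to 0.22. U0126 averaged over light and sham gave 0.03, 0.12 and 0.11 at the 3 times and 0.09 (SE 0.04, adjusted p = 0.355) over all of them. An increase of up to 1.16-fold with light at CT4 lies within the interval in vehicle.

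With the 4 treatments averaged, each of the 3 genes had its lowest level at CT15 and its highest at CT22. All 3 kept this order in DMSO-Sham, but only Rem2 kept it in all 4 treatments. Gem was highest at CT4 in DMSO-Light (7.04) and lowest at CT4 in U0126-Sham (6.25) and U0126-Light (6.26). Rrad was lowest at CT4 in DMSO-Light (7.05) and highest at CT4 in U0126-Sham (6.61) and U0126-Light (6.57). Gem rose from CT15 to CT22 by 0.38 (SE 0.10, 1.301-fold, adjusted p = 0.00258) and passed, as did 2.00% of all probe sets in this direction. CT22 minus CT15 was 0.29 for Rem2 (SE 0.05, adjusted p = 8.73e-06) and 0.37 for Rrad (SE 0.09, adjusted p = 0.000879), but these differences of 1.22-fold and 1.297-fold stayed under the 1.3-fold threshold. From CT4 to CT15 Rrad differed by -0.32 (adjusted p = 0.00837), Gem by -0.27 (adjusted p = 0.0586) and Rem2 by -0.13 (adjusted p = 0.0517), each under 1.3-fold, where 0.415% of probe sets passed as lower. From CT4 to CT22 Rem2 differed by 0.16 (adjusted p = 0.00845), Rrad by 0.05 and Gem by 0.11, none past 1.3-fold, where 1.04% passed as higher. For Rrad these averages hold the DMSO arrays on which it was picked, so they are not independent of that choice. In the U0126 arrays alone, given below, its steps from CT4 to CT15 and from CT15 to CT22 did not pass.

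The call for Gem lay close to the fold threshold. It was lost on leaving out any of 13 of the 24 arrays of CT15 and CT22, with values of 0.34 to 0.43 over all 24 and an adjusted p of 0.00703 at most. The arrays whose removal ended it were, at CT15, DMSO-Sham 2, DMSO-Light 1 and 2, U0126-Sham 1 and U0126-Light 3, and, at CT22, DMSO-Sham 2 and 3, DMSO-Light 1 and 3, U0126-Sham 1 and 2, and U0126-Light 1 and 2. Rrad, just under the threshold, passed when any of 10 of the 24 arrays was left out, with values of 0.32 to 0.41 over all 24. These were, at CT15, DMSO-Sham 1 and 3, DMSO-Light 1, U0126-Sham 2 and U0126-Light 1, and, at CT22, DMSO-Sham 1 and 2, DMSO-Light 2, U0126-Sham 1 and U0126-Light 1.

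Without light or drug, Gem had its largest difference between times. DMSO-Sham arrays read 6.72, 6.45 and 7.02 at CT4, 6.19, 5.76 and 6.11 at CT15, and 6.49, 6.88 and 7.20 at CT22. Every CT15 array lay below every array of CT4 and of CT22, separations shown by 13.3% and 18.4% of all probe sets. From CT4 to CT15 Gem fell by 0.71 (SE 0.20, 1.64-fold, adjusted p = 0.0401, in a comparison where 1.20% of probe sets passed as lower), and from CT15 to CT22 it rose by 0.83 (SE 0.20, 1.78-fold, adjusted p = 0.00496, with 3.25% passing as higher). The fall did not pass without replicate 1 or 3 of CT4 (-0.72, adjusted p = 0.133, and -0.56, adjusted p = 0.146) or without replicate 2 of CT15 (-0.58, adjusted p = 0.205), nor with Xist as a covariate (-0.59, adjusted p = 0.102). The rise passed without each of its 6 arrays in turn (0.66 to 1.02). In U0126-Sham the same differences were 0.06 and 0.32, and neither passed.

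Rrad in DMSO-Sham showed the same order, with means of 6.75 ± 0.15 at CT4, 6.15 ± 0.39 at CT15 and 6.77 ± 0.27 at CT22 (SD, n = 3). These arrays entered the choice of the gene, so within single treatments only the arrays under U0126 were used for tests. In U0126-Sham, Rrad at CT15 lay below CT4 without overlap (9.21% of probe sets were separated that way) by 0.48 (SE 0.17, adjusted p = 0.101), and CT22 lay above CT15 by 0.38 (SE 0.17, adjusted p = 0.111). In U0126-Light the differences were -0.39 and 0.37 (adjusted p = 0.269 and 0.162). None of the 4 passed, where 0.476% of probe sets passed as lower and 3.41% as higher in U0126-Sham, and 0.229% and 1.93% in U0126-Light. The step from CT15 to CT22 passed in U0126-Sham without replicate 2 of CT15 (0.47, adjusted p = 0.0953) or replicate 1 of CT22 (0.52, adjusted p = 0.0492), and in U0126-Light without replicate 1 of CT15 (0.51, adjusted p = 0.0642). These were 2 of 6 and 1 of 6 fits with an array left out, and in the others the adjusted p reached 0.35 and 0.441.

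For Rem2 the differences between times had the same sign in every treatment. DMSO-Sham arrays read 5.95, 5.72 and 5.90 at CT4, 5.65, 5.64 and 5.78 at CT15, and 5.87, 6.13 and 6.03 at CT22. DMSO-Light arrays read 5.80, 5.92 and 5.94, then 5.70, 5.74 and 5.68, then 5.97, 6.02 and 5.95. CT22 lay above CT15 without overlap in DMSO-Sham, DMSO-Light and U0126-Sham by 0.32, 0.27 and 0.34, a separation shown by 18.4%, 18.7% and 17.6% of all probe sets. U0126-Sham arrays read 5.93, 5.98 and 5.83 at CT4, 5.81, 5.77 and 5.89 at CT15, and 6.03, 6.11 and 6.35 at CT22. In U0126-Light they read 6.05, 5.92 and 5.72, then 5.99, 5.81 and 5.66, then 5.94, 6.04 and 6.15, and CT15 and CT22 overlapped. The adjusted p of the CT22 against CT15 step was 0.0197, 0.0435, 0.00736 and 0.0997 in the order DMSO-Sham, DMSO-Light, U0126-Sham and U0126-Light, and each step was under 1.3-fold. In these comparisons 3.25%, 2.95%, 3.41% and 1.93% of all probe sets passed as higher. Without replicate 1 of CT22 the steps in DMSO-Sham (0.39) and in U0126-Sham (0.41) passed, in each treatment 1 of 6 fits with an array left out.

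Markers of other cells also differed between CT15 and CT22 in DMSO-Sham. The summed log2 level of microglial markers was 8.66 to 8.72 at CT15 and 8.97 to 9.47 at CT22, with 2 of 4 (Cx3cr1 and Csf1r) passing as higher. That of meningeal fibroblast markers was 8.75 to 8.91 at CT15 and 8.37 to 8.57 at CT22, with 2 of 7 (Slc22a8 and Lum) passing as lower. Of 9 SCN neuron markers, Avp, Nms and Rgs16 passed as higher. In this comparison 3.25% of all probe sets passed as higher and 2.71% as lower. Their part in the rise of Gem was not tested.

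The RefSeq promoter of Rem2 is shown because the mean level of Rem2 was highest at CT22 in each of the 4 treatments. The 250 bases before its start, on the plus strand at chr14:54475850-54476099 (GRCm38.p6), read 5′ to 3′ as follows, in lower case because no searched motif was found.
Rem2: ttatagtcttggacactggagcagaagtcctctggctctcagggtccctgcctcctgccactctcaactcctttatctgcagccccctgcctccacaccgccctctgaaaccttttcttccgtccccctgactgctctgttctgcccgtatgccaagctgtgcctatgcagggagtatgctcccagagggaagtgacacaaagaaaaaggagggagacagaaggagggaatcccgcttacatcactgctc
The letters sought on both strands of this stretch and the next 50 bases were TGACGTCA (the cyclic AMP response element, in 1.79% of 32851 promoters), its core TGACG (20.8%), TGACTCA (an AP-1 site, 5.2%), CACGTG (an E-box, 7.15%), GCGTGGGCG (an EGR1 site, 0.612%) and the CArG box (1.63%). A full TGACGTCA also counts as a core, and TGAGTCA is the same AP-1 site on the other strand.

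**Figure D4:**
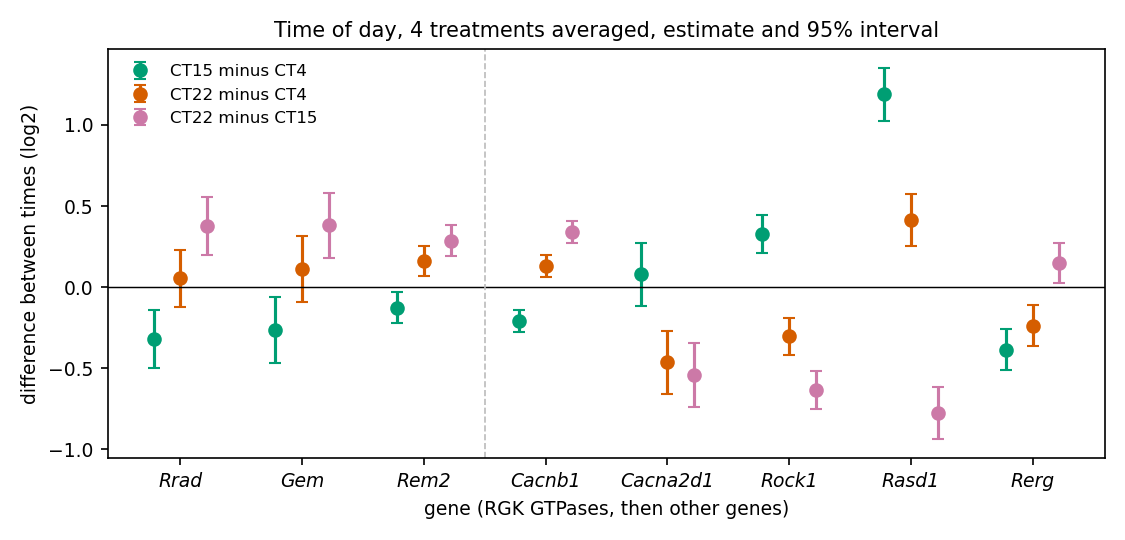
Differences between circadian times in log2 (vertical axis), averaged over the 4 treatments, for the 3 RGK GTPases and for genes of related lists that passed in a comparison of times. Points are estimates from 12 against 12 arrays and bars are 95% intervals. CT22 minus CT15 is 0.37, 0.38 and 0.29 for Rrad, Gem and Rem2, -0.54 for Cacna2d1 and -0.63 for Rock1.

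The order of the group levels summarised these patterns. For Rrad, the DMSO-Light groups of CT22 (7.37 ± 0.19), CT15 (7.24 ± 0.29) and CT4 (7.05 ± 0.19) ranked highest, and U0126-Light (6.18 ± 0.25), DMSO-Sham (6.15 ± 0.39) and U0126-Sham (6.13 ± 0.17) of CT15 lowest. Neighbours in this order overlapped throughout. For Gem, DMSO-Light of CT4 (7.04 ± 0.38) ranked highest and DMSO-Sham of CT15 (6.02 ± 0.23) lowest, and the only neighbours that did not overlap were DMSO-Light of CT15 (6.54 ± 0.12) and U0126-Light of CT15 (6.35 ± 0.10), a difference of -0.19 that did not pass (adjusted p = 0.804, where 6.16% of probe sets were separated in that direction). For Rem2, the 4 groups of CT22 ranked highest (5.98 to 6.16), those of CT4 next (5.86 to 5.91) and those of CT15 lowest (5.69 to 5.82).

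RGK proteins act through calcium channels and cytoskeletal kinases, and these genes were followed as a list. Of the genes for pore, beta and alpha2delta subunits of calcium channels, RGK binding partners and kinases that phosphorylate RGK proteins, 35 were measured. Others, Cacnb3 and Rock2 among them, were not analysed here for want of a probe set with their symbol alone. None of the 35 passed in any comparison of light or U0126 at single times with limma, while at an unadjusted p under 0.05 there were 0 to 7 per comparison. The 7 were with light in vehicle at CT22, where 7.80% of all probe sets had such a p and the median of the list was 0.06 against 0.00. At CT15 there were 4 with light in vehicle, 0 with light under U0126 and 5 with U0126 averaged over light and sham, beside 6.80%, 4.51% and 17.0% of all probe sets. Medians of the list in these 3 comparisons of CT15 were 0.00, 0.02 and -0.01, and those of all probe sets were 0.00, 0.00 and 0.02.

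Between times, with the 4 treatments averaged, 2 of 35 passed as lower at CT22 than at CT15 and none as higher. As 5.31% of all probe sets passed as lower there, this count is near the background. Cacna2d1, which encodes an alpha2delta subunit that carries channels to the membrane, was lower by 0.54 (SE 0.10), and Rock1, which encodes a cytoskeletal kinase that Gem inhibits, was lower by 0.63 (SE 0.06). Cacna2d1 means of the 4 groups were 8.47 to 8.72 at CT15 and 8.03 to 8.14 at CT22, and no array overlapped. Rock1 means were 7.97 to 8.20 at CT15 and 7.27 to 7.57 at CT22. Cacnb1, a beta subunit gene, was higher at CT22 by 0.42 in U0126-Sham, which passed, and its average difference of 0.34 stayed under 1.3-fold.

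Other GTPases of the Ras subfamily, 21 of them measured, were followed for comparison. Rasd1, a dexamethasone-induced Ras protein of the SCN, rose by 1.19 (SE 0.08) from CT4 to CT15 and fell by 0.78 (SE 0.08) from CT15 to CT22 with the treatments averaged, opposite in sign to the values of the RGK genes. Of all probe sets, 1.38% passed as higher in the first of these comparisons and 5.31% as lower in the second. With light in vehicle at CT22, Rasd1 fell by 0.72 (SE 0.16, adjusted p = 0.0361) and Rras, which is related to integrin signalling, by 0.75 (SE 0.12, adjusted p = 0.00328). In that comparison 0.520% of all probe sets passed as lower. None of the 21 passed with light in vehicle at CT15 or CT4 or with light under U0126 at any time. Of all probe sets, 0.105%, 0% and 0% passed in these comparisons. In the same order, 2, 0 and 0 to 1 of the 21 had an unadjusted p under 0.05. Among all probe sets 6.80%, 7.02% and 4.27% to 4.83% had such a p. U0126, averaged over light and sham, lowered Rasd1 at CT15 by 0.39 (SE 0.11, adjusted p = 0.0466), and no other gene of this list passed there. Of all probe sets, 0.102% passed as lower and 2.77% as higher in this comparison. Rerg, an oestrogen-regulated growth inhibitor, was lower at CT15 than at CT4 by 0.39 (SE 0.06) with the treatments averaged, where 0.415% of all probe sets passed as lower.

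Across the 36 arrays the correlation was 0.58 for Rrad with Gem, 0.18 for Rrad with Rem2 and 0.34 for Gem with Rem2. Within groups, after subtraction of the group means, it was 0.43, 0.36 and 0.13 in the same order. These correlations are descriptions over arrays that share the treatments.

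The genes whose 12 group means were most like those of a member, among 16736 genes with a mean of at least 5, are named as a description. For Rrad they were Dnajb5 (r = 0.95), Midn (0.92), AF357428 (0.91), Fosl2 (0.90) and Egr3 (0.90). After subtraction of the group means, the correlation over the 36 arrays was 0.25 for Dnajb5, -0.06 for Midn, 0.08 for AF357428, 0.43 for Fosl2 and 0.42 for Egr3. Fosl2 encodes an AP-1 transcription factor, Egr3 a zinc finger factor of the immediate early class and Dnajb5 a heat shock co-chaperone. Light minus sham in vehicle at CT15 was 0.49 for Dnajb5, 0.48 for Midn, 0.72 for Fosl2 and 0.50 for Egr3. These values are descriptions, since the genes were chosen for group means that follow those of Rrad. For Gem they were Mir212 (0.89), Fosl2 (0.87), Gm14556 (0.87), Fosb (0.87) and Ptbp1 (0.87), and Mir212, listed under a microRNA gene symbol, differed by 0.78 in the same comparison, likewise a description. Fosl2 was on both lists. For Rem2 they were Rpusd3 (0.98), 2610306M01Rik (0.97), Nfu1 (0.97), Dipk1b (0.96) and Necab3 (0.96), none of which is on the list of another member.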

How the data were processed

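RNA of pooled SCN was hybridised to 36 GeneChip mouse transcriptome arrays. The deposited values are log2 intensities that the authors made with the R package oligo, with the exact call and genome build not given in the sources used here. The submitters' processing notes name limma. The values were used as deposited. From 72688 probe sets, 6732 control sets were removed, which left 65956 for the tests. A single gene symbol was annotated for 30638 of them, several for 2176 and none for 33142.

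All arrays entered 1 model with 12 group means in limma (version 3.58.1, under R 4.3.3), and p-values were adjusted by Benjamini-Hochberg over all tested probe sets of a comparison. Intervals cover 95%. The text names the members in every comparison, of each gene list those that passed (at most 4, by smallest p), and for each member the 5 genes of highest correlation over the 12 group means. Where probe sets shared a symbol, the brightest was read. The members and lists were chosen with earlier results of these data known. Comparisons of light averaged over the 3 times, and of the U0126 effect between times, were added after the data were seen. Separate arrays of a group hold separate pools as far as the labels say, and 3 arrays per group limit the precision. The fits were tested on simulated data, and figures were drawn with matplotlib 3.10.9. Some genes are not reported here.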

Additional observations from a re-analysis of the deposited data

How the results depend on the processing

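No comparison in which a member passed changed sign under the alternatives or with an array left out. Of all 138 member comparisons, 47 did so, each with a size of at most 0.21 in the reported fit. Rrad under U0126 (light and sham averaged, at CT15, CT22 and over the 3 times) passed under every alternative run, at -0.57 to -0.45 and an adjusted p of at most 0.0671 without omitting arrays. All of these runs use the arrays on which Rrad was picked. The reported fit did not pair the arrays by replicate number. After subtraction of group means, all 3 correlations of same-numbered arrays exceeded 0.1 in 2 of 18 pairs of groups. These were DMSO-Sham with U0126-Sham at CT4 and DMSO-Light with U0126-Light at CT15. Such correlations cannot settle whether arrays of the same number were handled together. With the replicate number as a block, Rrad passed in U0126-Sham for CT15 minus CT4 (-0.48, adjusted p = 0.0521) and CT22 minus CT15 (0.38, adjusted p = 0.0648), so 1 member instead of 0 passed in each.

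Gem at CT22 minus CT15 (treatments averaged) was 0.37 with cyclic loess and 0.33 with quantile normalization, under 1.3-fold, so 0 members passed instead of 1. With Xist as a covariate, Gem in DMSO-Sham at CT15 minus CT4 was -0.59 (0 members passed instead of 1), and 2 members passed at CT22 minus CT15 with treatments averaged. In the U0126 effect on Gem, 1 member passed instead of 0 at CT4 with dim probe sets left out or the Xist covariate, and at CT15 minus CT4 also with trend and robust moderation or array weights. In U0126-Sham 1 member (Rrad) passed at CT15 minus CT4 with dim probe sets left out or with trend and robust moderation, and at CT22 minus CT15 with dim probe sets left out. Without the fold threshold, Rem2 (0.29) passed at CT22 minus CT15 with treatments averaged. The members passing were then 3 at CT15 minus CT4, 3 at CT22 minus CT15 and 1 at CT22 minus CT4 with treatments averaged, 2 at CT22 minus CT15 in DMSO-Sham, and 1 in each of the remaining treatments at CT22 minus CT15 and in U0126-Sham at CT22 minus CT4.

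Leaving out single arrays gave 0.34 to 0.43 for Gem at CT22 minus CT15 with treatments averaged and -0.85 to -0.56 in DMSO-Sham at CT15 minus CT4. The members passing ranged from 0 to 2 at CT22 minus CT15 with treatments averaged and in U0126-Sham, from 1 to 2 in DMSO-Sham and from 0 to 1 in U0126-Light. They ranged from 0 to 1 for U0126 at CT4, for the U0126 effect at CT15 minus CT4 and in DMSO-Sham at CT15 minus CT4. A choice among probe sets was not run, since each member had 1.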
